A study of Mus musculus with 17 samples.

Results

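The Cyp3a genes were followed in the colon of male mice by 1 probe per gene on a 1-colour Agilent expression array. The members are Cyp3a11, Cyp3a13, Cyp3a16, Cyp3a25, Cyp3a41a, Cyp3a44, Cyp3a57 and Cyp3a59, chosen by name, and these 8 are all the names starting with Cyp3a among the 37074 gene and transcript names on the array. Each has a single probe, printed as 1 spot. The 17 arrays fall into 4 groups, with 5 arrays for Pxr-/- CONT and 4 arrays each for Pxr-/- PCN, WT PCN and WT CONT. WT denotes wild-type C57BL/6J mice, bought from a breeder at 6 weeks of age, and Pxr-/- for mice with a constitutive deletion of the pregnane X receptor in the whole body, kept in a colony of their own for 10 years after backcrossing. All mice had 2 weeks of acclimatization. PCN mice received pregnenolone 16α-carbonitrile, a ligand of the rodent receptor, at 100 mg/kg in corn oil by intraperitoneal injection on each of 4 days, and CONT mice received the oil alone. All were killed 6 h after the last injection. Genotype and origin of the mice cannot be told apart, and nothing states how many arrays came from separate mice, so p-values measure only the spread between these arrays.

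The CYP3A enzymes are cytochromes P450, heme proteins of the endoplasmic reticulum that oxidize drugs, steroids and bile acids with electrons passed on by NADPH-cytochrome P450 reductase. The pregnane X receptor (PXR), encoded by Nr1i2, is a nuclear receptor of liver and gut that binds such compounds, pairs with the retinoid X receptor and switches on Cyp3a genes. In the mouse, Cyp3a11 is the member used most often as a readout of PXR activity in liver, while Cyp3a13 is known as the member typical of the intestine. Cyp3a16 is known from fetal liver, and Cyp3a41a and Cyp3a44 are known as liver enzymes with higher levels in females.

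The genes lie close together and their transcripts are alike, so the sequences decide what a probe can read. In RefSeq on GRCm38.p6, 7 of the 8 members lie with Cyp3a41b in a cluster of 770 kb on chromosome 5 (chr5:145345149-146114978), and Cyp3a13 lies alone, 7.42 Mb away. The array files annotate the Cyp3a11 probe to transcripts of 4 genes (Cyp3a11, Cyp3a41a, Cyp3a41b and Cyp3a44), the Cyp3a25 probe to Cyp3a25 and Cyp3a59, and the Cyp3a41a probe to Cyp3a41a and Cyp3a41b. The probes of Cyp3a13, Cyp3a16, Cyp3a44, Cyp3a57 and Cyp3a59 are annotated to 1 gene each. In build mm9 of the array files the Cyp3a11 probe spans chr5:146672058-146673925 on the minus strand, that is 1868 bases of the genome for a 60-base probe, so that it crosses an intron. The Cyp3a59 probe lies at chr5:146920638-146920697 on the plus strand. Both are shown in full because they lie inside the coding sequence, where the family is most alike:
Cyp3a11 probe: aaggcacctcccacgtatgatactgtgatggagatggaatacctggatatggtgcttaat
Cyp3a59 probe: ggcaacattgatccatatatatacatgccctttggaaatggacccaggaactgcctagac

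The probes of Cyp3a25 (chr5:146789175-146789234, minus strand) and Cyp3a57 (chr5:146151322-146151381, plus strand) read the same end of the coding sequence in both genes. They share a stretch of 52 bases that differs at 3 positions, given here in capitals, and it closes with the stop codon:
Cyp3a25 probe: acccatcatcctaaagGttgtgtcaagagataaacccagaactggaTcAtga
Cyp3a57 probe: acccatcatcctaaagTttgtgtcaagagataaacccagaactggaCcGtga
Of the 28 pairs of member probes, this pair and that of Cyp3a16 with Cyp3a25 (32 bases, 8 differences) were the pairs that overlapped by at least 30 bases with at most 10 differences. How much signal a probe takes from a relative was not tested, and the values of Cyp3a11, Cyp3a25, Cyp3a41a and Cyp3a57 are uncertain in this respect.

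Values are log2 of the median spot intensity after quantile normalization, and a spot counts as detected where the scanner software marked it as well above its background. On an array, 60.95% to 69.65% of probes were detected, and the median local background was 20 to 28 intensity units. The colonocyte list (such as Car1, Slc26a3 and Krt20) was detected at 9 of 9 genes on every array. Some arrays stood apart. Over all probes, the arrays labelled WT PCN 4 and Pxr-/- PCN 2 differed with an SD of 0.172, and WT PCN 3 and Pxr-/- CONT 2 with an SD of 0.198, while the other 134 pairs of arrays lay between 0.298 and 0.615. These 2 pairs, called near-identical here, carry different labels, and which label holds was not settled. In addition, liver transcripts (Alb, Ahsg, Fga, Fgb, Fgg, Serpina1a, Apoh and Hpx) had a mean log2 signal of 10.63 in WT CONT 5, 7.98 in WT PCN 1 and 7.93 in WT PCN 2, against 5.55 to 5.99 in the other 14 arrays. Of these 8 genes, 8, 7 and 7 were detected on those 3 arrays, and 2 to 6 on each of the others. Pancreas genes were high on 4 arrays, with list means of 17.63 in WT CONT 4, 15.50 in WT PCN 3, 15.45 in Pxr-/- CONT 2 and 11.30 in WT PCN 1. Both WT groups hold arrays with liver and with pancreas transcripts. The near-identical arrays lie in WT PCN and both Pxr-/- groups, and none is in WT CONT. The results are given with and without the near-identical arrays and the 3 arrays with the most liver transcripts.

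Cyp3a13 and Cyp3a11 were detected on all 17 arrays, and the other 6 members on 1 to 5 arrays. Among all probes, 56.9% were detected on every array and 20.7% on none. Cyp3a41a was detected on 5 arrays, Cyp3a57 and Cyp3a59 on 4 each, Cyp3a16 and Cyp3a25 on 3 each, and Cyp3a44 on 1. In bulk colon RNA, fewer cells that hold a transcript and less of it per cell cannot be told apart.

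Cyp3a13 gave a bright spot on every array, with a raw median intensity of 3101.5 to 7874.5 units. Its log2 signal was 11.96, 12.00, 12.68 and 12.09 in WT CONT 2 to 5 and 12.16, 12.17, 12.21 and 12.30 in WT PCN 1 to 4. It was 12.30, 12.11, 12.16, 12.63 and 11.71 in Pxr-/- CONT 1 to 5 and 12.40, 12.21, 12.17 and 12.94 in Pxr-/- PCN 1 to 4. The 4 groups overlapped, and the WT PCN arrays lay inside the range of the WT CONT arrays. Group means were 12.18 ± 0.33 (SD, n = 4), 12.21 ± 0.06 (SD, n = 4), 12.18 ± 0.33 (SD, n = 5) and 12.43 ± 0.35 (SD, n = 4) in the same order. The order of the groups from WT CONT and Pxr-/- CONT over WT PCN to Pxr-/- PCN held no step larger than the SD of WT CONT, Pxr-/- CONT or Pxr-/- PCN. The step from WT PCN to Pxr-/- PCN was larger than the small SD of WT PCN (0.06).

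Cyp3a11 was dim on every array, with a raw median intensity of 65 to 181 units. Its log2 signal was 6.33, 6.69, 6.49 and 6.87 in WT CONT 2 to 5 and 6.96, 7.42, 6.21 and 6.47 in WT PCN 1 to 4. It was 6.68, 6.52, 6.43, 6.15 and 6.18 in Pxr-/- CONT 1 to 5 and 6.52, 6.21, 6.51 and 6.49 in Pxr-/- PCN 1 to 4. The 3 highest arrays were WT PCN 2, WT PCN 1 and WT CONT 5, which are the arrays with the most liver transcripts, and WT PCN 3 and 4 lay among the Pxr-/- arrays. WT PCN had a mean of 6.77 ± 0.54 (SD, n = 4), followed by WT CONT with 6.60 ± 0.23 (SD, n = 4), Pxr-/- PCN with 6.43 ± 0.15 (SD, n = 4) and Pxr-/- CONT with 6.39 ± 0.23 (SD, n = 5). Neighbouring groups in this order overlapped.

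**Figure D1:**
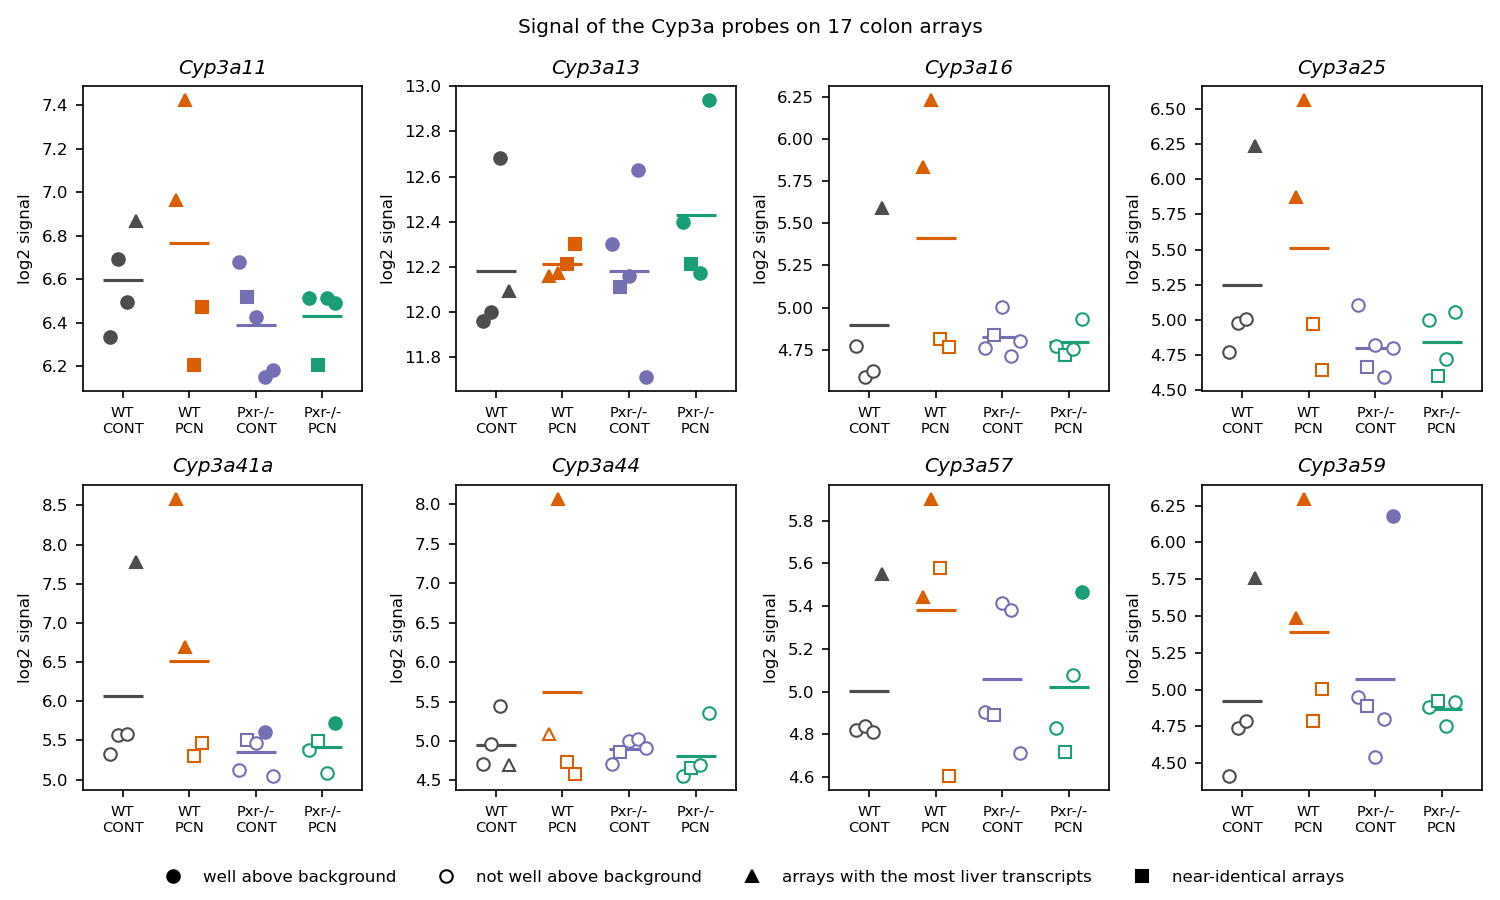
Log2 signal of each Cyp3a probe (vertical axis, a scale of its own in each panel) on the 17 colon arrays, by group, with a horizontal line at the group mean. Filled symbols are detected spots, triangles are the 3 arrays with the most liver transcripts and squares the 4 near-identical arrays; Cyp3a16 and Cyp3a25 are filled at the 3 triangles alone.

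Cyp3a16 and Cyp3a25 were detected on exactly 3 arrays, and these were WT CONT 5, WT PCN 1 and WT PCN 2. Cyp3a16 read 5.59, 5.83 and 6.23 there, against 4.59 to 5.01 on the other 14 arrays. Cyp3a25 read 6.24, 5.88 and 6.56, against 4.59 to 5.10. For both genes the 3 arrays did not overlap the others. Of 56605 probes, 34 (0.0601%) were detected on exactly these arrays, among them probes named for 8 major urinary protein genes and pseudogenes (Mup), Apoa1, Apoc3, Gc, Pzp, Cyp2a4 and Cyp2c37, all genes known for expression in liver. Apoa1 also belongs to the list of small intestine genes used below. The 34 further hold probes for Ankrd33, Drd3, Klf10, Slc30a2, Wdr12, Zfp651 and transcripts without a gene symbol, which were not picked as liver genes.

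Cyp3a41a was detected on the same 3 arrays, at 7.78 in WT CONT 5, 8.58 in WT PCN 1 and 6.70 in WT PCN 2, and also on Pxr-/- CONT 4 and Pxr-/- PCN 4 at 5.60 and 5.72. The arrays on which it was not detected read 5.04 to 5.58. Cyp3a44 was detected on WT PCN 2 alone, at 8.07, and read 4.56 to 5.44 elsewhere, including 4.69 in WT CONT 5 and 5.09 in WT PCN 1. Its raw intensity on WT PCN 2 was 282.5 units, and its lowest on any array was 23 units.

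Cyp3a57 was detected on the 3 arrays, at 5.55, 5.44 and 5.90, and on Pxr-/- PCN 4 at 5.47, but WT PCN 3 read 5.58 without being detected. Cyp3a59 was detected on the 3 arrays, at 5.76, 5.49 and 6.30, and on Pxr-/- CONT 5 at 6.18. The 3 arrays were thus not set apart for either gene. Counting the highest values, WT CONT 5, WT PCN 1 and WT PCN 2 were the top 3 arrays for 4 of the 8 members (Cyp3a11, Cyp3a16, Cyp3a25 and Cyp3a41a), and for 0.559% of all 56523 probes with a value on every array.

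On these 3 arrays the Cyp3a genes were set beside the genes of the liver list. Genes detected on both arrays of a pair were compared, which leaves out Cyp3a44 and the liver gene Fga in both pairs. The lowest detected signal was 4.992 on WT PCN 1 and 5.215 on WT PCN 2. Cyp3a16, Cyp3a25, Cyp3a57 and Cyp3a59 read 5.59, 6.24, 5.55 and 5.76 on WT CONT 5. A fall as large as that of the liver genes would have left them undetected, so the comparison could not show it for them. On WT PCN 1, 7 of 7 liver genes were lower than on WT CONT 5, with a median difference of -3.03 on the log2 scale and a range of -3.47 to -2.48. The 7 Cyp3a genes had a median of 0.07, with 4 higher and 3 lower, from -0.36 for Cyp3a25 to 0.80 for Cyp3a41a. That median was the value of Cyp3a13. Cyp3a13 and Cyp3a11 were detected on all 17 arrays, so the signal of both was not confined to the arrays with liver transcripts. On WT PCN 2, 7 of 7 liver genes were again lower (median -3.17), and of the 7 Cyp3a genes 6 were higher (median 0.35) and Cyp3a41a was lower (-1.08). Albumin (Alb) read 12.68 on WT CONT 5, 9.21 on WT PCN 1 and 9.50 on WT PCN 2. With the background-corrected scanner signal the counts of higher and lower genes were the same in each set. The Cyp3a differences then ran from -0.73 (Cyp3a25) over -0.66 (Cyp3a57), -0.63 (Cyp3a59) and 0.07 (Cyp3a11) to 0.89 (Cyp3a41a) on WT PCN 1, and from -1.44 (Cyp3a41a) over 0.71 (Cyp3a11) to 1.38 (Cyp3a16) on WT PCN 2. There is 1 CONT array of this kind, so the difference between the treatments has no replicate check, and its relation to liver RNA and to PCN was not tested.

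**Figure D2:**
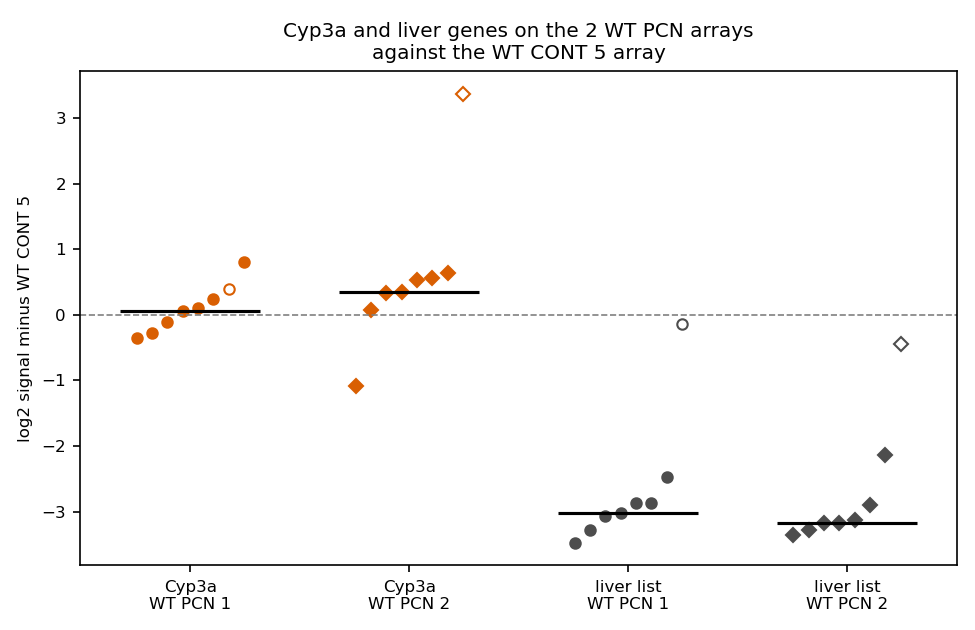
Log2 signal on WT PCN 1 and WT PCN 2 minus that on WT CONT 5 (vertical axis) for the 8 Cyp3a genes and the 8 genes of the liver list, 1 symbol per gene, filled where the gene was detected on both arrays compared, with a line at the median of the filled symbols. The liver genes lie below 0, with medians of -3.03 and -3.17, while the Cyp3a genes lie on both sides of 0 with medians of 0.07 and 0.35, the lowest being Cyp3a41a on WT PCN 2 at -1.08. A fall as large as that of the liver genes would have left Cyp3a16, Cyp3a25, Cyp3a57 and Cyp3a59 undetected.

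The first comparison asked what PCN changed in colon that has the receptor. Cyp3a11, Cyp3a13, Cyp3a41a, Cyp3a57 and Cyp3a59 passed the filter of detection on at least 4 arrays, and Cyp3a16, Cyp3a25 and Cyp3a44 did not and were not tested. Cyp3a41a, Cyp3a57 and Cyp3a59 passed it only through WT CONT 5, WT PCN 1 and WT PCN 2, with detection on 2, 1 and 1 of the other arrays. Of the 5 members tested, limma called 0 at an FDR of 0.05 and a fold change over 1.5, and 0 had an unadjusted p under 0.05. Among all 38703 probes tested, 0% were called and 4.66% had an unadjusted p under 0.05. In WT, PCN minus CONT was 0.21 (SE 0.21) for Cyp3a11 and 0.05 (SE 0.20) for Cyp3a13 on the log2 scale, with adjusted p of 0.956 and 0.990 by limma. The 95% interval was -0.23 to 0.66 for Cyp3a11 and -0.38 to 0.49 for Cyp3a13. Cyp3a41a differed by 0.65 (SE 0.56), Cyp3a57 by 0.38 (SE 0.27) and Cyp3a59 by 0.57 (SE 0.35), each with an adjusted p of 0.956. Without WT PCN 2 the value was 0.21 for Cyp3a57, 0.25 for Cyp3a59 and -0.0097 for Cyp3a11, and without WT PCN 1 that of Cyp3a41a was -0.07. With all arrays the 3 differences were positive, but their groups overlapped, and the detected PCN arrays were WT PCN 1 and 2 in each. The fitted differences of the untested Cyp3a16, Cyp3a25 and Cyp3a44 were 0.58, 0.37 and 0.65. For Cyp3a44, which was not detected in WT CONT, the mean of WT PCN was at least 1.33-fold above the limit of detection there, through 1 of 4 arrays.

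Within a slide, the same question could be put to 3 pairs of WT arrays, with 1 array a side and no test. Cyp3a11 was higher under PCN by 1.09 and 0.47 on the slides with WT PCN 2 and WT PCN 1 and lower on the slide with WT PCN 3 (-0.49). Cyp3a41a also was higher on the slides of WT PCN 2 (1.38) and WT PCN 1 and lower on that of WT PCN 3 (-0.27), and Cyp3a13 gave 0.21, -0.52 and 0.21 in this order. Cyp3a57 was higher under PCN in all 3 pairs, by 1.08, 0.63 and 0.74, and so were Cyp3a59 (1.89, 0.70 and 0.05) and the untested Cyp3a16 (1.47, 1.21 and 0.23). On the slide of WT PCN 3 none of these 3 genes was detected on either array. Within the 2 wash baths, the difference of Cyp3a11 was 0.19 and 0.28.

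In Pxr-/- mice, 0 of the 5 members were called by limma and 0 had an unadjusted p under 0.05, where 0.00517% of all probes were called and 7.35% passed the unadjusted threshold. PCN minus CONT was 0.06 (SE 0.20) for Cyp3a11, 0.26 (SE 0.19) for Cyp3a13 and 0.15 (SE 0.52) for Cyp3a41a, with adjusted p by limma of 0.975, 0.836 and 0.976. Cyp3a57 and Cyp3a59 had differences of -0.04 (SE 0.26) and -0.16 (SE 0.32). Within slides, the difference of Cyp3a13 was -0.42, 0.28 and 1.23. The last of these pairs holds Pxr-/- PCN 4, the highest array for this gene, and without that array the fitted difference was 0.08. The interaction of genotype and PCN, a test of whether the effect of PCN differed between the genotypes, was called for 0 of 5 members, with 0 at an unadjusted p under 0.05 (all probes 0% and 5.38%). It was -0.16 (SE 0.28) for Cyp3a11, 0.20 (SE 0.28) for Cyp3a13 and -0.74 (SE 0.47) for Cyp3a59.

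Between genotypes under CONT, limma called 0 of the 5 members and 0 had an unadjusted p under 0.05 (all probes 0% and 12.7%). Pxr-/- minus WT was -0.22 (SE 0.20) for Cyp3a11, -0.01 (SE 0.19) for Cyp3a13 and -0.80 (SE 0.52) for Cyp3a41a. The last value leaned on WT CONT 5, and without that array it was -0.30. Under PCN, limma called 0 of 5 members and 1 had an unadjusted p under 0.05, where all probes gave 0% and 3.28%. This was Cyp3a41a, lower in Pxr-/- at -1.30 (SE 0.56), with an unadjusted p by limma of 0.0353 and an adjusted p of 1.00. Without WT PCN 1 the value was -0.58. Cyp3a41a passed the filter only through WT CONT 5, WT PCN 1 and WT PCN 2, the arrays with the most liver transcripts. Its unadjusted p-value is thus no separate support for a difference. The 4 arrays labelled Pxr-/- PCN read 5.38, 5.49, 5.08 and 5.72, and WT PCN 1 to 4 read 8.58, 6.70, 5.30 and 5.46, so that the near-identical WT arrays lay among the Pxr-/- arrays and the other WT arrays lay above all of them. Cyp3a11 and Cyp3a59 differed by -0.38 (SE 0.21) and -0.63 (SE 0.35), and Cyp3a13 by 0.19 (SE 0.20). Without WT PCN 2 alone, the values of Cyp3a11 and Cyp3a59 were -0.16 and -0.31, and without Pxr-/- PCN 4 that of Cyp3a13 was 0.05. For members not detected in any Pxr-/- PCN array, the mean of WT PCN was above the limit of detection there by at least 1.36-fold for Cyp3a16, 1.37-fold for Cyp3a25, 1.49-fold for Cyp3a44 and 1.32-fold for Cyp3a59, through 2, 2, 1 and 2 of 4 arrays. These were WT PCN 1 and 2, and WT PCN 2 alone for Cyp3a44. Genotype and liver RNA cannot be told apart in these limits.

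Leaving out the 4 near-identical arrays moved the WT differences of Cyp3a11, Cyp3a41a, Cyp3a57 and Cyp3a59 up, and leaving out the 3 arrays with the most liver transcripts moved the same 4 down. Without the 4 arrays, PCN minus CONT in WT was 0.60 (SE 0.19, adjusted p by limma 0.778) for Cyp3a11, 1.58 (SE 0.59) for Cyp3a41a, 0.67 (SE 0.28) for Cyp3a57 and 0.97 (SE 0.42) for Cyp3a59, and -0.02 (SE 0.28) for Cyp3a13. None of the 5 was called by limma, against 0.0491% of all probes, while the 4 with positive values had unadjusted p of 0.00981, 0.0226, 0.0358 and 0.0428, where 4.68% of all probes passed that threshold. The WT PCN group then holds only WT PCN 1 and 2, both among the arrays with the most liver transcripts, and WT CONT holds 1 such array of 4, so PCN and liver RNA cannot be told apart in it. Cyp3a41a, Cyp3a57 and Cyp3a59 also passed the filter only through those arrays, so their unadjusted p-values are no separate support for a difference. Pxr-/- minus WT under PCN was -0.69 (SE 0.20) for Cyp3a11, -2.36 (SE 0.63) for Cyp3a41a and -1.11 (SE 0.45) for Cyp3a59. Their unadjusted p by limma were 0.00592, 0.0034 and 0.0309 and their adjusted p 0.505, 0.481 and 0.614. Both WT PCN arrays left are among those with the most liver transcripts, and no Pxr-/- array is. Genotype and liver RNA therefore cannot be told apart in this comparison, and liver RNA also enters the interaction. Again 0 members were called, against 0.0207% of all probes, and 7.56% of all probes passed the unadjusted threshold. The interaction was then -1.30 (SE 0.56) for Cyp3a59, the only one of 5 members with an unadjusted p under 0.05 (0.0416, adjusted p by limma 1.00), and 0 were called, where 0.00258% of all probes were called and 2.95% passed. In the other 2 comparisons 0 of 5 members were called or passed the unadjusted threshold, while among all probes 0.0517% were called and 7.19% passed for PCN in Pxr-/-, and 0% were called and 10.1% passed for genotype under CONT.

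Without the 3 arrays with the most liver transcripts, PCN minus CONT in WT was -0.13 (SE 0.17) for Cyp3a11, -0.11 (SE 0.21) for Cyp3a41a, 0.10 (SE 0.29) for Cyp3a13, 0.22 (SE 0.30) for Cyp3a57 and 0.37 (SE 0.33) for Cyp3a59. Cyp3a41a, Cyp3a57 and Cyp3a59 were detected on 0 of the WT arrays left, so their WT values are background and cannot show an effect of PCN. Only Cyp3a11 and Cyp3a13 were detected on all 14 arrays left. Pxr-/- minus WT under PCN was 0.03 (SE 0.17) for Cyp3a11 and 0.04 (SE 0.20) for Cyp3a41a. In each of the 5 comparisons limma called 0 of 5 members and 0 had an unadjusted p under 0.05, where 0% of all probes were called and 6.98% (PCN in WT), 7.44% (PCN in Pxr-/-), 9.08% (genotype under CONT), 2.46% (genotype under PCN) and 9.5% (interaction) passed. The WT PCN group then holds only the near-identical arrays WT PCN 3 and 4, whose labels are in question. No setting leaves a WT PCN array that belongs to neither kind.

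**Figure D3:**
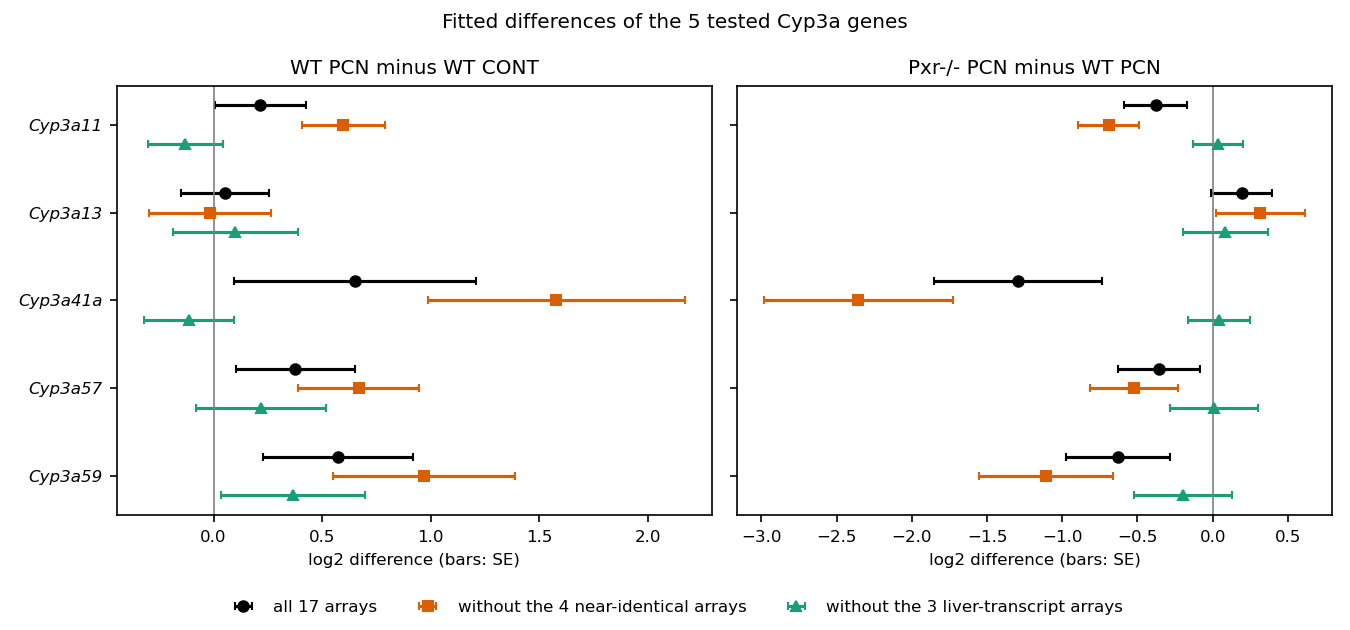
Fitted log2 differences with their SE (horizontal axis) for the 5 tested Cyp3a genes, for PCN against CONT in WT and for Pxr-/- against WT under PCN, with all 17 arrays, without the 4 near-identical arrays and without the 3 arrays with the most liver transcripts. Between the second and the third setting Cyp3a11 and Cyp3a41a change sign in both panels and Cyp3a57 changes sign for Pxr-/- against WT (-0.52 to 0.01), and the 6 estimates of Cyp3a13 lie between -0.02 and 0.32. In the third setting Cyp3a41a, Cyp3a57 and Cyp3a59 are not detected on any WT array.

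The other genes of the pathway were read from 3 lists. The receptors and regulators (Nr1i2, Nr1i3, Rxra, Rxrb, Nr3c1, Vdr and Hnf4a) were all tested, and 0 of 7 were called in any of the 5 comparisons. With 0% to 0.00517% of all probes called in these comparisons, a count of 0 in this list and in the next ones is no different from the background. The probe of Nr1i2 was detected on every array of both genotypes. Pxr-/- minus WT was -1.06 (SE 0.25, adjusted p by limma 0.201) for it under CONT and -0.26 (SE 0.27, adjusted p 1.00) under PCN. It read 11.97 to 12.31 in WT CONT and 10.39 to 11.61 in Pxr-/- CONT, which did not overlap. Under PCN the genotypes overlapped, with 12.44, 11.85, 11.10 and 11.15 in WT PCN 1 to 4 and 11.37, 10.95, 11.93 and 11.66 in Pxr-/- PCN 1 to 4. WT PCN 3 and 4 and Pxr-/- PCN 2 are near-identical arrays whose labels are in question. Without the 4 such arrays, Pxr-/- minus WT for Nr1i2 was -0.53 (SE 0.30) under PCN and -1.035 (SE 0.23) under CONT. The electron transfer and heme genes were all tested too, with 0 of 5 called, and Alas1, the first enzyme of heme synthesis, differed by 0.72 (SE 0.24, adjusted p by limma 0.956) between WT PCN and WT CONT. Of 14 other PXR target genes, 12 were on the array by name and 10 passed the filter, with 0 called in any comparison.

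The list of other PXR targets was chosen with earlier results of these data known. Without the 4 near-identical arrays, the WT PCN group held only WT PCN 1 and 2. For PCN in WT and for genotype under PCN, 0.0491% and 0.0207% of all probes were then called. In both comparisons 0 of the 5 tested Cyp3a genes were called. Limma called 3 of the 10 tested targets in both, as higher with PCN in WT and as lower in Pxr-/- than in WT under PCN. They were Ces2a, a carboxylesterase (2.31, SE 0.24, adjusted p by limma 0.00664), Abcb1a, the drug efflux pump P-glycoprotein (1.36, SE 0.13, adjusted p 0.00622), and Akr1b7, an aldo-keto reductase (1.96, SE 0.19, adjusted p 0.00622). Ces2a read 11.50 on WT CONT 5, within the 11.42 to 12.05 of the WT CONT group, and 14.05 and 13.98 on WT PCN 1 and 2. The part of liver RNA in these differences was not tested. Akr1b7 read 8.37 on WT CONT 5 and 10.71 and 10.28 on WT PCN 1 and 2. Abcb1a read 14.02 on WT CONT 5, against 13.87 to 13.98 on the other WT CONT arrays, and 15.26 and 15.33 on WT PCN 1 and 2. Cyp3a11 read 6.87 on WT CONT 5, against 6.69 on WT CONT 3, the next highest of that group, and 6.96 and 7.42 on WT PCN 1 and 2. On the near-identical arrays WT PCN 3 and 4, Ces2a read 9.78 and 10.59, among the 9.75 to 11.05 of the arrays labelled Pxr-/-. Without the 3 arrays with the most liver transcripts, WT PCN holds only these arrays, and the median PCN difference of the 10 targets in WT was -0.50. None was called there, and Ces2a, Abcb1a and Akr1b7 had an unadjusted p under 0.05 by limma, where 6.98% of all probes passed. All 3 genes read lower on WT PCN 3 and 4 than on every WT CONT array, the opposite direction.

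Cyp3a13 varied between arrays apart from the groups. Its 3 highest arrays, Pxr-/- PCN 4 (12.94), WT CONT 4 (12.68) and Pxr-/- CONT 4 (12.63), were also the 3 arrays with the lowest mean over 5 Hox genes of the distal colon (Hoxa13, Hoxb13, Hoxd11, Hoxd12 and Hoxd13), at 6.35, 8.03 and 7.70. The other 14 arrays read 11.71 to 12.40 for Cyp3a13 and 8.04 to 10.44 for the list mean. Among them the lowest list means, 8.04 in Pxr-/- CONT 2 and 8.05 in WT PCN 3, lay close to that of WT CONT 4 while Cyp3a13 was 12.11 and 12.21. A list of 10 genes of the small intestine was highest on Pxr-/- PCN 4 as well, with a mean of 9.46, next highest on Pxr-/- CONT 4 (8.68) and sixth on WT CONT 4 (8.24). WT CONT 4 was the array with the highest pancreas list. This order was noticed after the values were seen, and the part that the sampled stretch of gut has in it was not tested.

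**Figure D4:**
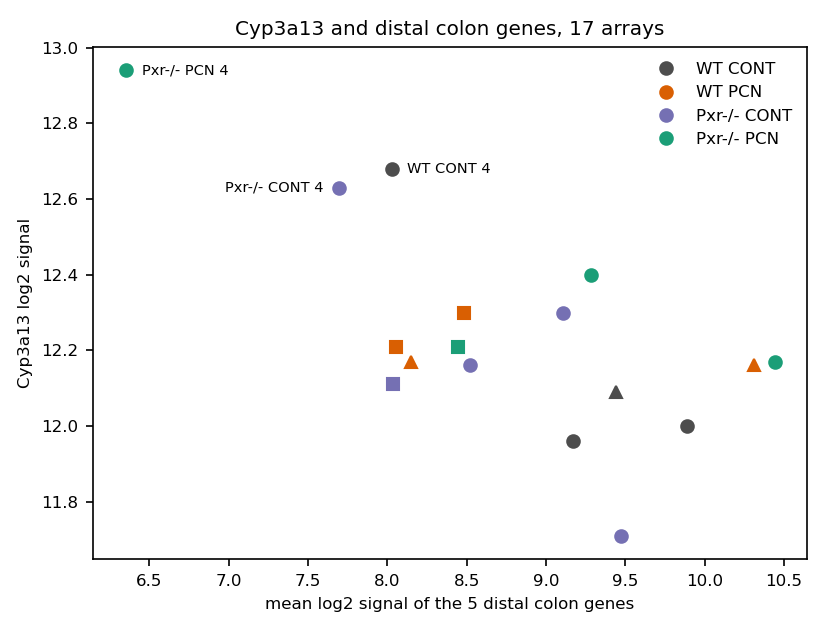
Log2 signal of Cyp3a13 (vertical axis) against the mean log2 signal of 5 distal colon Hox genes (horizontal axis), 1 symbol per array, coloured by group, with triangles for the 3 arrays with the most liver transcripts and squares for the 4 near-identical arrays. The 3 labelled arrays are the highest for Cyp3a13 and the lowest for the Hox genes.

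Of 24820 names tested, those whose signal ran most like Cyp3a13 over the 17 arrays were Dbndd2 (Pearson r 0.922, rho 0.86), Elp2 (r 0.891) and Gak (r 0.890), and r was 0.926, 0.913 and 0.896 over the 13 arrays outside the near-identical pairs. For Cyp3a11 they were Fam84a (r 0.857, rho 0.655), Stoml1 (r 0.843) and Clec4n (r 0.835), with r of 0.896, 0.834 and 0.825 over the 13 arrays. These are descriptions of the best of many names, and the near-identical arrays and those with liver or pancreas transcripts enter both sides.

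The promoter windows fell into 2 sets, with Cyp3a13 apart. Each window is the 250 bases before an annotated start (GRCm38.p6, 8 of 8 members matched). For Cyp3a16, Cyp3a25, Cyp3a57 and Cyp3a59 that start lies inside the RefSeq gene, so part of the window is inside the gene. Cyp3a25, Cyp3a57 and Cyp3a59 shared 89.6% to 95.2% of bases in pairwise alignments, and Cyp3a11, Cyp3a16, Cyp3a41a and Cyp3a44 shared 76.8% to 94.4%. Between both sets the share was 58.0% to 66.4%, and Cyp3a13 shared 56.4% to 64.8% with any other member. Gaps at the ends were free in these alignments, and the share between unrelated promoters was not measured. The nuclear receptor half-sites AGGTCA and AGTTCA were searched on both strands. Cyp3a25, Cyp3a57 and Cyp3a59 each hold AGGTCA at 2 places, 1 on each strand. Of the 32817 promoters of the same length, 1.36% hold it at 2 or more places on any strand, and 0.539% hold it exactly once on each strand. Cyp3a11 holds AGGTCA and AGTTCA once each, found in 14.0% and 11.9% of promoters, Cyp3a44 holds AGGTCA once and Cyp3a41a AGTTCA once. Neither string is in this window of Cyp3a13 or Cyp3a16. The windows that hold the matches are shown in 60 bases each, read along the gene's strand with the half-sites in capitals, for Cyp3a11 (chr5:145879975-145880034, minus strand), Cyp3a25 (chr5:146009749-146009808, minus strand) and Cyp3a59 (chr5:146079068-146079127, plus strand), together with the like window of Cyp3a16 (chr5:145469844-145469903, minus strand):
Cyp3a11 promoter: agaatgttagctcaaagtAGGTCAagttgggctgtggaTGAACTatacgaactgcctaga
Cyp3a16 promoter: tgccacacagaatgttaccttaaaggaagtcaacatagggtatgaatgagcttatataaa
Cyp3a25 promoter: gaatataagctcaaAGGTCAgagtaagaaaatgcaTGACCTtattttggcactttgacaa
Cyp3a59 promoter: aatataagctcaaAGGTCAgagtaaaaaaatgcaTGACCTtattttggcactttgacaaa
Cyp3a16 and Cyp3a25 differ in these matches. Both were detected only on the 3 arrays with the most liver transcripts, and a relation of the matches to signal in colon was not tested. A match is a string of letters and not a shown binding site.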

How the data were processed

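Cy3-labelled colon RNA was read on 17 1-colour Agilent arrays (design build mm9). The authors scanned them with Agilent Feature Extraction 10.10.1.1, per the labels and file headers, and deposited the median intensity of each spot with its local background and flags. The authors also deposited log2 values of 36695 probes, which hold Cyp3a11 and Cyp3a13 and no other member, used as an alternative. The article reports liver arrays of this design, and those are not analysed here.

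After removal of outlier spots from the 59305 spots other than controls, log2 of the median intensity was quantile-normalized (in place of the methods' CrossNorm, whose settings are not given in the sources used here) and spots of a probe were averaged (56605 probes). Probes well above background on at least 4 arrays (38703) were tested with limma 3.58.1 in R 4.3.3, with the 4 groups and wash bath, as in the methods, and Benjamini-Hochberg adjustment over all of them. A gene was called where FDR was 0.05 or lower and the change exceeded 1.5-fold. The lower limit of a fold against an undetected group uses the lowest detected signal of each array. The fit was tested on simulated data. The named genes are the 8 members, 3 pathway lists and the 3 names most like each member detected on at least 9 arrays. Members and lists were chosen with earlier results of these data known. Alternatives were the deposited values, other scalings and backgrounds, filters, batch terms, a replicate block, array weights and arrays left out. No spot was saturated, and the number of arrays limits the precision. Probe annotations were named through RefSeq accessions (15 of 16 matched), promoters were aligned with Biopython 1.88, and figures were drawn with matplotlib 3.10.9.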

Additional observations from a re-analysis of the deposited data

Results flagged for a closer look

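In 6 of 32 groups of member values, 1 array lay far from the others by Dixon's test for a single outlying value. Chance gives such a value in about 1 in 20 groups. Of these, 3 concern WT CONT 5, the array with the highest liver list mean (10.63). Cyp3a25 read 6.24 there against 4.77 to 5.01 in the other WT CONT arrays, Cyp3a41a read 7.78 against 5.32 to 5.58, and Cyp3a57 read 5.55 against 4.81 to 4.84. The fourth is Cyp3a44 on WT PCN 2, at 8.07 against 4.59 to 5.09 in the other WT PCN arrays, and it is the only array on which this gene was detected. That array did not lead for Cyp3a41a, whose highest value was on WT PCN 1. Cyp3a59 read 6.18 on Pxr-/- CONT 5 against 4.54 to 4.95 in the other arrays of its group, and the liver list mean of this array was 5.86, within the range of the arrays outside the 3 with the most liver transcripts. Cyp3a11 read 6.21 on Pxr-/- PCN 2 against 6.49 to 6.52, where the other 3 arrays happened to lie close together. The causes were not tested.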

How the results depend on the processing

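The count of members called was 0 under every other setting in each comparison that it could be run for, leaving out each array in turn included. With only the groups of the contrast the interaction could not be fitted, and the deposited values and the filter of detection on all 17 arrays hold only Cyp3a11 and Cyp3a13. Another probe per gene could not be tried because each gene has 1. Some estimates changed sign, most of them smaller than their SE with all arrays, and the largest of them was Cyp3a41a for Pxr-/- minus WT under PCN (-1.30 with all arrays). The cause was not tested. For Cyp3a13, Pxr-/- minus WT under CONT was 0.0732 with the processed signal, 0.0236 with normexp, 0.0161 without the 4 near-identical arrays and 0.0896 with array weights, PCN in WT was -0.0179 without those 4, and the interaction with array weights was -0.00215. For PCN in Pxr-/-, Cyp3a41a was -0.0453 with slide as a fixed block and -0.0221 without the 4 arrays, and Cyp3a57 was 0.0449 without them. Without the 3 arrays with the most liver transcripts, PCN in WT was -0.13 for Cyp3a11 and -0.11 for Cyp3a41a, Pxr-/- minus WT under PCN was 0.0343, 0.0413 and 0.00742 for Cyp3a11, Cyp3a41a and Cyp3a57, and the interaction was 0.18 for Cyp3a11 and 0.18 for Cyp3a41a, which was 0.0245 with array weights. With the replicate block, PCN in WT was -0.0155 for Cyp3a13 and 0.17 for Cyp3a11, and PCN in Pxr-/- was 0.0444 for Cyp3a59. Correlations of same-numbered arrays ran from -0.334 to 0.447. With 3 or 4 shared numbers per comparison, this cannot settle whether the numbers pair the samples. The block changed no call.

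Leaving out single arrays moved PCN in WT between -0.00968 (without WT PCN 2) and 0.38 (without WT PCN 3) for Cyp3a11, between -0.068 (without WT PCN 1) and 1.07 (without WT CONT 5) for Cyp3a41a and between -0.0176 and 0.19 for Cyp3a13, and between 0.21 and 0.62 for Cyp3a57 and 0.25 and 0.77 for Cyp3a59 (both lowest without WT PCN 2). PCN in Pxr-/- lay between -0.0115 and 0.11 for Cyp3a11, -0.0132 and 0.38 for Cyp3a41a, -0.21 and 0.0693 for Cyp3a57 and -0.25 and 0.0729 for Cyp3a59. Pxr-/- minus WT under CONT lay between -0.17 and 0.16 for Cyp3a13, -0.0508 and 0.26 for Cyp3a57 and -0.13 and 0.35 for Cyp3a59, and the interaction between -0.32 and 0.0744 for Cyp3a11 and -0.94 and 0.17 for Cyp3a41a. Most members gave signals near the background, where a difference is compressed.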
